A study of Mus musculus with 4 samples.

Results

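Adrenomedullin signalling was examined through its genes, namely the ligands Adm, Adm2 and Calca, the receptor Calcrl and its partners Ramp1, Ramp2 and Ramp3. These 7 genes were taken as a list of names and matched to Ensembl identifiers, and all 7 were found among the 47729 genes listed. After a filter on low counts 6 of the 7 remained among 18783 genes tested, with Adm2 below the filter.

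Whole lungs of BL/6 mice were measured by RNA sequencing in 4 libraries, each a pool of animals. All carried the genotype labelled Control (Rosa), under titles that also bear the tag MSX1, whose meaning is not given. The Normoxic group held 1 pool of 3 females and 1 pool of 1 female and 2 males, and the Sugen-Hypoxic group held 2 pools of 2 males each. Sugen is an inhibitor of VEGF receptors that is combined with hypoxia in rodents to produce pulmonary hypertension. No group analysed here received hypoxia or Sugen alone and every treated animal was male, so hypoxia, Sugen and sex cannot be told apart. Neither the animals' age nor the dose and length of exposure is stated in the labels.

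Adrenomedullin is a secreted vasodilator peptide that signals through cyclic AMP and keeps the endothelial barrier tight. Its receptor is a complex of the G-protein-coupled receptor encoded by Calcrl and a RAMP, a single-pass membrane protein that carries the receptor to the cell surface and sets its ligand preference. With RAMP1 the complex prefers calcitonin gene-related peptide, and with RAMP2 or RAMP3 it prefers adrenomedullin. In lung, Calcrl and Ramp2 are known for high levels in endothelium, and Adm is a well-known target of hypoxia-inducible factor (HIF).

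The changes that passed the test lay in the RAMP genes. Ramp2 fell 1.64-fold and Ramp3 rose 3.12-fold after Sugen and hypoxia, while the receptor gene Calcrl and Ramp1 had overlapping levels in the 2 groups. Ramp3 started from a low level, so Ramp2 remained the most abundant of the RAMP genes in all 4 libraries. Adm was higher in both treated libraries but did not pass the test. Outside the list of 7, the decoy receptor gene Ackr3 rose 9.81-fold.

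Libraries held 57319562 to 67135829 reads assigned to genes, and levels are given as CPM, reads per 1000000 gene reads of the library. Of genes with 1 to 20 reads, 83.4 to 86.3% in each library had an even count, so a count may stand for fewer independent fragments than its size. The extraction text of the labels names kidneys, but Sftpc, the surfactant gene of alveolar cells, was at 11239.2 to 12002.6 CPM and 8 kidney markers summed to 0.337 to 1.01 CPM, with 2 of them (Kap and Slc22a6) at 0 in all libraries. Between the groups 11.5% of genes tested passed edgeR's quasi-likelihood test at an adjusted p of 0.05, 5.51% as higher and 6.01% as lower. The split of 1035 higher and 1128 lower became 799 and 1424 with upper-quartile factors, and 765 and 1584 with library size alone. Nothing in the labels says how the pools were drawn, and p-values measure the spread between these pools only.

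Among the members, 2 of the 6 tested passed, Ramp3 as higher and Ramp2 as lower, against 11.5% of all genes tested. In 3 of the 6 the CPM of the groups did not overlap, which was also so for 61.3% of all genes tested. Ramp3 and Adm were higher and Ramp2 lower, against 21.3% of all genes as higher and 40% as lower. CPM lacks the scaling factors that the test applies. Without Normoxic replicate 1 no member passed, where 0.128% of all genes did, and without Normoxic replicate 2 none did, against 0.577% of all genes. Without Sugen-Hypoxic replicate 1 the number of members was 3, against 25.7% of all genes, and without Sugen-Hypoxic replicate 2 it was 4, against 24.4%. With the share of males in each pool as a covariate 0 members passed, against 0.0586% of all genes. Both treated pools were all male, so that fit takes the effect of sex from the normoxic pools alone. It has 1 residual degree of freedom, and a call lost there does not tell sex from treatment.

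**Figure D1:**
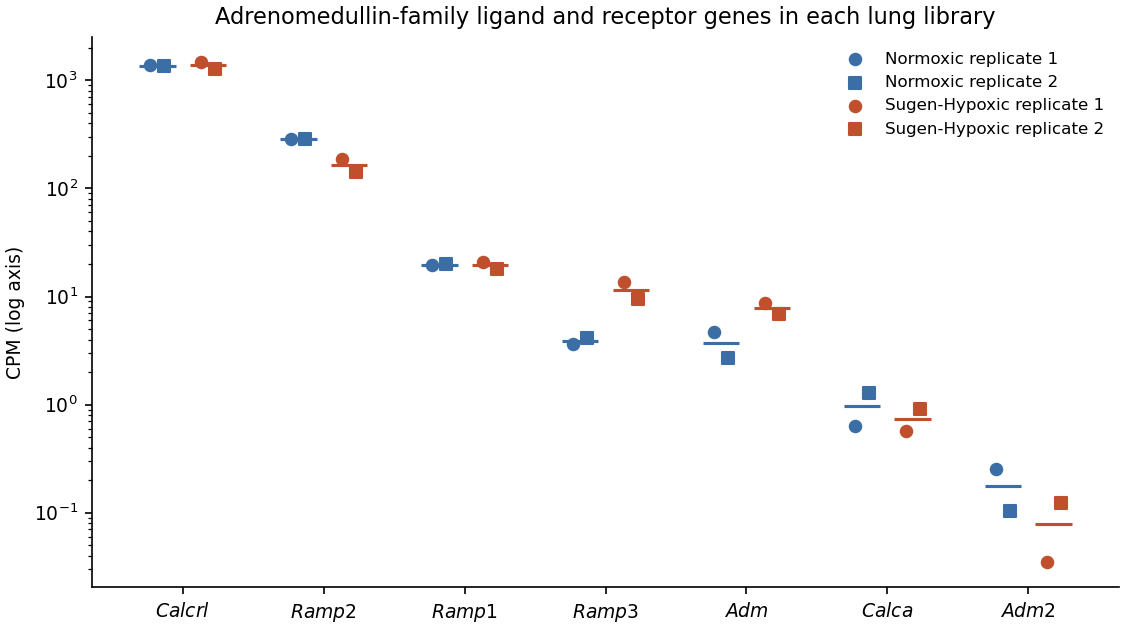
Level of each of the 7 genes in the 4 lung libraries, in CPM on a log axis, with libraries as points and group means of 2 libraries as lines. Ramp2 is lower and Ramp3 and Adm are higher in both treated libraries than in both normoxic ones, while the points of Calcrl, Ramp1, Calca and Adm2 overlap between groups.

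Because HIF is known to bind the core letters ACGTG or GCGTG, upstream sequences of the members and, outside them, of Ackr3 alone were searched. The sequences of Adm, Ramp3 and Ackr3, whose CPM was higher in both treated libraries, are shown beside that of Calcrl, which overlapped between groups. They were thus picked by their values, and Ackr3 had the largest rise in the pathway lists given below. HIF-induced genes that fell were not searched. The sequences shown therefore cannot tell whether a motif goes with a rise. Each is the 250 bases before the RefSeq gene start on GRCm38.p6, read 5′ to 3′ on the strand of the gene, with matches to either motif on either strand in capitals. Adm's window is chr7:110627407-110627656 on the plus strand, that of Ramp3 chr11:6658283-6658532 on the plus strand, that of Ackr3 chr1:90203730-90203979 on the plus strand and that of Calcrl chr2:84425267-84425516 on the minus strand. The windows of Calcrl and Ramp3 hold the GENCODE start (84425411 and 6658521), so part of each lies inside that gene model.
Adm: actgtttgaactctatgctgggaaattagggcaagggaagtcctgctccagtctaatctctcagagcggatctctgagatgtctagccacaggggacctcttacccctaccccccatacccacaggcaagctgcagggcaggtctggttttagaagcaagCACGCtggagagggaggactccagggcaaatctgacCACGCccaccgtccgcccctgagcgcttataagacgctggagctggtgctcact
Ramp3: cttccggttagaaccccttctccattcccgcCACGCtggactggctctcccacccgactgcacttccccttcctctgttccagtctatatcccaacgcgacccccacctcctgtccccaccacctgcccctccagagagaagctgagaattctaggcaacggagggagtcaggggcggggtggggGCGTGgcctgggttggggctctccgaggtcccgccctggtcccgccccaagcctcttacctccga
Ackr3: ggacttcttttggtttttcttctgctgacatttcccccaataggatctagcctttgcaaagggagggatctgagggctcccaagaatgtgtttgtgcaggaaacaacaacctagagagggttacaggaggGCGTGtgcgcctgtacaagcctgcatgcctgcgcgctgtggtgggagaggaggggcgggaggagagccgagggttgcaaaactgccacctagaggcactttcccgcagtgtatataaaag
Calcrl: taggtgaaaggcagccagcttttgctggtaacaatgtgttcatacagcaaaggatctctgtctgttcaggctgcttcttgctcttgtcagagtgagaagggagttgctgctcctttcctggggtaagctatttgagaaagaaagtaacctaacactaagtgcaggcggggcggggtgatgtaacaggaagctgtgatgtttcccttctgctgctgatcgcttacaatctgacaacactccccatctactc
The Adm window held GCGTG at 2 places, both on the opposite strand, the first base of each 90 and 54 bases before the start. The Ramp3 window also held 2, at 219 bases on the opposite strand and at 65 bases on the gene's own strand, and that of Ackr3 held 1 at 120 bases. GCGTG (reverse complement CACGC) was present in 28.2% and ACGTG (reverse complement CACGT) in 16.6% of 32841 such windows, and either of them in 38.6%. Neither was found in the windows of Adm2, Calca, Calcrl and Ramp1. The cyclic AMP response core TGACG, present in 17.8% of windows on either strand, was found once among the members, in the Calca window 65 bases before the start. Ramp2 had no entry among these sequences. Adm, shown with the genes that were higher, did not pass the test, and HIF binding was not tested for any gene.

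Of the ligand genes, Adm (ENSMUSG00000030790, GRCm38 chromosome 7, 110627661 to 110629820, plus strand) encodes adrenomedullin. It was at 4.68 and 2.71 CPM in Normoxic replicates 1 and 2, or 314 and 158 reads, and at 8.64 and 6.92 CPM in Sugen-Hypoxic replicates 1 and 2, or 495 and 452 reads. Both treated libraries were above both normoxic ones, and the all-female normoxic pool was above the mixed one. The log2 fold change (Sugen-Hypoxic over Normoxic) of 1.14 ± 0.29 (SE) missed the threshold in edgeR's quasi-likelihood test (adjusted p = 0.0635).

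Adm did pass in DESeq2 (adjusted p = 0.00195), which called 18.7% of its genes, and in edgeR with no expression filter (adjusted p = 0.00236), which called 13.4%. Its log2 fold change was 1.60 ± 0.27 without the all-female Normoxic replicate 1 and 0.79 ± 0.25 without the mixed Normoxic replicate 2. With the share of males in each pool added to the model (1 residual degree of freedom), it was 1.996 ± 0.396 (adjusted p = 0.358).

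Calca (ENSMUSG00000030669, GRCm38 chromosome 7, 114631478 to 114636357, minus strand) encodes calcitonin or, by alternative splicing, calcitonin gene-related peptide, which a count per gene does not separate. It was at 0.64 and 1.29 CPM in normoxia and 0.576 and 0.903 CPM after treatment, or 33 to 75 reads. The groups overlapped, and the log2 fold change of -0.30 ± 0.46 (SE) did not pass (adjusted p = 0.699, edgeR). Its sign turned without Normoxic replicate 2, to 0.27 ± 0.54, and with the share of males as a covariate it was -1.22 ± 0.69.

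Calca is also a marker of pulmonary neuroendocrine cells and of thyroid C cells. Of 13 other neuroendocrine markers listed 12 were found and 9 tested, of which 1 rose (Uchl1) and 1 fell (Grp). Over all genes tested 11.5% passed. The median log2 fold change of the list was -0.69 against -0.004 over all genes tested. Chga, a granule protein gene, had 3 to 6 reads per library. The list summed to 21.3 and 21.4 CPM in normoxia and 34.9 and 24.0 CPM after treatment, of which Uchl1, a ubiquitin hydrolase gene, made up 3.08 and 5.32 and then 19.5 and 11.4 CPM. Neither call held without either normoxic library or with the share of males as a covariate. Nearly all calls over all genes tested were lost in the same fits.

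Of 7 thyroid markers 5 were tested, of which 1 rose and 0 fell, with a median of -0.77. Over all genes tested 5.51% rose and 6.01% fell. The list summed to 18.1 and 15.5 CPM in normoxia and 49.2 and 108.0 CPM after treatment, of which Slc26a4, an anion transporter gene also expressed in epithelia outside the thyroid, made up 8.42 and 8.09 and then 44.3 and 103.0 CPM. Tg, the thyroglobulin gene, was at 3.98 and 2.66 CPM in normoxia and 1.67 and 1.55 CPM after treatment and did not pass (adjusted p = 0.0776, edgeR). The call of Slc26a4 was lost without either normoxic library and with the share of males as a covariate. Nearly all calls over all genes tested were lost in the same fits.

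Adm2 (ENSMUSG00000054136, GRCm38 chromosome 15, 89322720 to 89324731, plus strand) encodes the related peptide intermedin and had 17 and 6 reads in normoxia and 2 and 8 reads after treatment. At 0.0349 to 0.253 CPM it stayed below the expression filter, and no difference was detectable at this depth. With no filter its log2 fold change was -1.08 ± 1.003 (adjusted p = 0.605, edgeR).

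The receptor gene Calcrl (ENSMUSG00000059588, GRCm38 chromosome 2, 84330626 to 84425411, minus strand) encodes the G-protein-coupled receptor shared by adrenomedullin and calcitonin gene-related peptide. It stood at 1389.6 and 1351.3 CPM in normoxia and at 1484.2 and 1265.4 CPM after treatment. The treated libraries lay on either side of the normoxic ones. Its log2 fold change was 0.07 ± 0.11 (SE), with adjusted p = 0.696 in edgeR's quasi-likelihood test. Without Sugen-Hypoxic replicate 2 it was 0.20 ± 0.06 and passed (adjusted p = 0.0253), and without Sugen-Hypoxic replicate 1 it was -0.06 ± 0.07 and did not. In both of these fits the spread comes from the normoxic pair alone, and the lone treated library is assumed to vary like it.

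Ramp2 (ENSMUSG00000001240, GRCm38 chromosome 11, 101246028 to 101259546, plus strand) encodes the partner that makes the main adrenomedullin receptor of blood vessels. It was at 284.1 and 284.0 CPM in the normoxic libraries and at 187.1 and 142.2 CPM in the treated ones. The all-female and the mixed normoxic pool were nearly equal, both treated libraries were lower, and the groups did not overlap. The log2 fold change was -0.72 ± 0.14 (SE), with adjusted p = 0.0322 in edgeR's quasi-likelihood test. With the male fraction as a covariate it was -0.70 ± 0.27 and did not pass (adjusted p = 0.565).

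In the GENCODE annotation Ramp2 shares 1103 of its 3301 exon bases with the neighbouring gene Vps25 on the same strand. Vps25, a component of the endosomal sorting machinery, was listed at only 0.238 to 0.567 CPM. Reads in such a shared stretch are usually assigned to neither gene, and the effect of the overlap on the level of Ramp2 was not tested.

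Ramp3 (ENSMUSG00000041046, GRCm38 chromosome 11, 6658521 to 6677475, plus strand) encodes the other partner that gives adrenomedullin preference, and its protein is also known for directing the internalised receptor towards recycling. It was at 3.66 and 4.16 CPM in the normoxic libraries, or 246 and 242 reads, and at 13.7 and 9.52 CPM in the treated ones, or 784 and 622 reads. Each treated library was more than 2 times each normoxic one. The log2 fold change was 1.64 ± 0.21 (SE), with adjusted p = 0.0122 in edgeR's quasi-likelihood test. With the male fraction as a covariate it was 1.48 ± 0.43 and did not pass (adjusted p = 0.472). An antisense pseudogene, Gm11978, shares 101 exon bases with Ramp3 and held 0 to 2 reads per library.

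Ramp1 (ENSMUSG00000034353, GRCm38 chromosome 1, 91179822 to 91225196, plus strand), the partner in the receptor for calcitonin gene-related peptide, was at 19.5 and 19.9 CPM in normoxia and at 20.9 and 18.1 CPM after treatment. The treated libraries enclosed the normoxic ones. The log2 fold change of 0.05 ± 0.10 (SE) did not pass (adjusted p = 0.771, edgeR), and it was -0.02 ± 0.10 with library size alone and -0.07 ± 0.10 without Sugen-Hypoxic replicate 1.

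The make-up of the Ramp transcripts within a library does not depend on how libraries are scaled. Per kilobase (kb) of annotated exon, Ramp2 was 90.4 and 90.0% of the summed Ramp level in the normoxic libraries and 77.1 and 77.0% in the treated ones. Ramp3 was 2.79 and 3.15% in normoxia and 13.5 and 12.3% after treatment, and Ramp1 went from 6.78 and 6.90% to 9.40 and 10.7%. In each of these shares the groups lay further apart than their libraries. The size of the differences depends on the gene length used. That of Ramp2 includes the 1103 bases shared with Vps25, whose effect on these shares and on the ratios below was not tested. With the longest transcript in place of all exons, which shortens Ramp2 from 3301 to 1478 bases, the Ramp2 share differed by -7.71 percentage points between the groups instead of -13.2, and the Ramp3 share by 5.29 instead of 9.94. An exact permutation test of 2 libraries against 2 cannot go below a two-sided p of 0.33, which is the value each share gave.

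The log2 ratio of Ramp3 to Ramp2 per kb moved from -4.93 ± 0.13 to -2.58 ± 0.09 (SD, n = 2 in each group). With Calcrl as the reference, the log2 ratio of Ramp2 went from -1.71 ± 0.03 to -2.51 ± 0.12 and that of Ramp3 from -6.63 ± 0.16 to -5.09 ± 0.21. That of Ramp1 was -5.43 ± 0.05 and -5.45 ± 0.02, and that of Adm -6.99 ± 0.53 and -5.88 ± 0.06. The summed Ramp level came to 33.4 and 34.6% of the Calcrl level in normoxia and to 24.2 and 21.6% after treatment. The difference of -11.1 percentage points became -27.1 with the longest transcript as length. With that length Ramp2 alone averaged 192 CPM per kb in normoxia and 111 after treatment, against 281 and 282 for Calcrl. The percentages themselves therefore depend on the length used. Per kb of annotated exon these ratios gave the smallest exact two-sided p of 0.33, except that of Ramp1 to Calcrl, which gave 1.

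**Figure D2:**
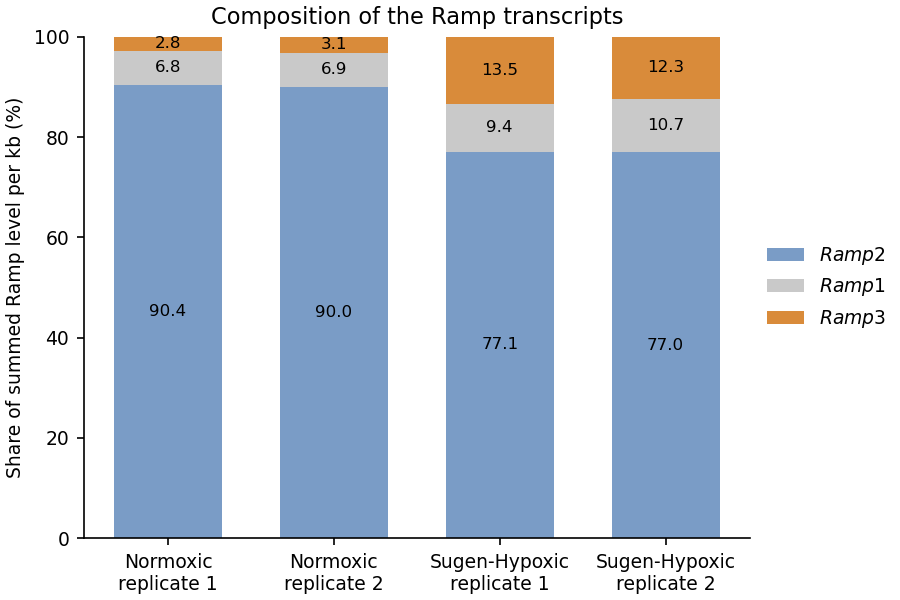
Share of Ramp1, Ramp2 and Ramp3 in their summed level per kb of exon, in percent, in each of the 4 libraries. Ramp2 makes up 90.4 and 90.0% in normoxia and 77.1 and 77.0% after Sugen and hypoxia, and Ramp3 goes from 2.79 and 3.15% to 13.5 and 12.3%.

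In order of level per kb, Calcrl was the most abundant of the 7 genes in both groups. Its mean of 281 ± 5.54 CPM per kb (SD, n = 2) ranked 79 among 17372 protein-coding genes in normoxia, and its 282 ± 31.7 CPM per kb ranked 84 after treatment. Ramp2 came next in normoxia with 86.1 ± 0.0214 CPM per kb, then Ramp1 with 6.53 ± 0.104, Ramp3 with 2.83 ± 0.25, Adm with 2.28 ± 0.86, Calca with 0.573 ± 0.272 and Adm2 with 0.137 ± 0.0818 CPM per kb. Of the neighbours in this order, Ramp3 and Adm had libraries that overlapped. After treatment Ramp2 was at 49.9 ± 9.62, Ramp3 at 8.40 ± 2.13, Ramp1 at 6.45 ± 0.65 and Adm at 4.803 ± 0.751 CPM per kb. There Ramp3 and Ramp1 overlapped, and Adm lay below both libraries of Ramp1. Calca and Adm2 stayed last, at 0.439 ± 0.137 and 0.0606 ± 0.0477 CPM per kb.

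Among other genes of the calcitonin family and its decoy receptors, 1 of 5 tested passed, against 11.5% of all genes tested. Ackr3 encodes an atypical chemokine receptor that takes up CXCL12 and also removes adrenomedullin without signalling through G proteins. It rose from 31.9 and 29.4 CPM in the normoxic libraries to 311.8 and 260.9 CPM in the treated ones, so that each treated library was more than 8 times each normoxic one. Its log2 fold change of 3.29 ± 0.12 (SE) had adjusted p = 0.000968 in edgeR, and it passed without each library in turn (adjusted p at most 0.021). With the male fraction as a covariate it was 3.43 ± 0.25 and did not pass (adjusted p = 0.0751).

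The remaining family genes did not pass. Calcb, the gene of the beta form of calcitonin gene-related peptide, was at 0.611 and 0.704 CPM in normoxia and 0.558 and 0.52 CPM after treatment. Calcr, the calcitonin receptor, which also pairs with RAMPs, was at 0.715 to 1.06 CPM over the 4 libraries, and Iapp, the gene of amylin, had no read in any. Gpr182, a receptor of endothelium once proposed to bind adrenomedullin, was at 56.1 to 69.3 CPM, and Crcp, whose protein couples the receptor to G-protein signalling, at 14.9 to 17.1 CPM.

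Among 10 tested genes for making, binding or degrading the peptides, 2 rose and 1 fell, with a median log2 fold change of 0.12. Over all genes tested 11.5% passed. Mme, neprilysin, a membrane peptidase that degrades adrenomedullin, rose from 216.0 and 216.5 CPM to 294.7 and 318.0 CPM (0.57 ± 0.06, adjusted p = 0.00875, edgeR). Mmp2, a matrix metalloproteinase gene, rose from 135.3 and 137.0 CPM to 228.5 and 292.8 CPM. Dpp4, a dipeptidyl peptidase gene, fell from 144.8 and 145.5 CPM to 106.6 and 96.1 CPM. Pam, the enzyme that amidates adrenomedullin, was at 388.4 and 399.0 CPM in normoxia and 425.1 and 391.4 CPM after treatment and did not pass (adjusted p = 0.338).

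Downstream of the receptor, 2 rose and 1 fell among 19 genes for the stimulatory G protein, adenylyl cyclases, protein kinase A and cyclic AMP effectors. Their median was 0.07, and 11.5% of all genes tested passed. The adenylyl cyclase gene Adcy3 rose from 43.1 and 43.9 CPM to 63.8 and 64.9 CPM and the cyclase gene Adcy8 fell from 63.3 and 66.1 CPM to 45.4 and 40.7 CPM. Prkar2a, a regulatory subunit of protein kinase A, rose by 0.26 ± 0.06 on the log2 scale (adjusted p = 0.0458, edgeR). Gnas, the gene of the stimulatory G protein, was at 856.9 and 875.4 CPM in normoxia and 863.6 and 841.6 CPM after treatment and did not pass (adjusted p = 0.718).

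Among 7 genes of receptor desensitisation, 1 rose and 1 fell, where 11.5% of all genes tested passed. Arrb1, beta-arrestin 1, rose from 489.0 and 475.9 CPM to 736.8 and 663.8 CPM (0.61 ± 0.09, adjusted p = 0.0156, edgeR). Grk2, a kinase that marks active receptors for arrestin, fell from 176.6 and 174.9 CPM to 131.7 and 132.2 CPM. Of 10 cyclic AMP phosphodiesterases, the enzymes that end the signal, 0 rose and 2 fell, against 5.51 and 6.01% of all genes tested. Pde4a fell by 0.62 ± 0.08 on the log2 scale and Pde7a from 56.1 and 54.7 CPM to 41.6 and 43.9 CPM.

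Of 11 genes known to be induced by cyclic AMP, 2 rose and 0 fell, with a median of -0.12. The share that passed over all genes tested was 11.5%. The growth factor gene Areg went from 3.65 and 3.16 CPM to 6.14 and 9.76 CPM, and the transcription factor gene Crem from 13.2 and 13.1 CPM to 15.9 and 19.3 CPM. The orphan nuclear receptor gene Nr4a1, at 83.8 and 84.8 CPM in normoxia and 70.3 and 44.9 CPM after treatment, did not pass (adjusted p = 0.19, edgeR). With upper-quartile factors 1 gene of this list passed.

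Of 17 HIF factors and HIF-induced genes listed beside Adm, 5 rose and 2 fell, with a median of 0.20. Over all genes tested 5.51% rose and 6.01% fell. Egln3, an oxygen sensor, rose 2.78-fold and the stress gene Ndrg1 1.98-fold. Bnip3, Slc2a1 and Hif1a, for a mitophagy receptor, a glucose transporter and a HIF subunit, rose by 0.63 ± 0.13, 0.49 ± 0.08 and 0.42 ± 0.07 on the log2 scale. Hilpda, a lipid droplet gene, fell 4.03-fold and Pfkfb3, a regulator of glycolysis, 1.44-fold. Epas1, the HIF subunit most abundant in endothelium, was at 4372.9 and 4180.9 CPM in normoxia and 3109.0 and 2786.4 CPM after treatment and did not pass (adjusted p = 0.051, edgeR). Over these 7 pathway lists nearly all calls were lost without either normoxic library, and all of them with the male fraction as a covariate. Nearly all calls over all genes tested were lost in the same fits.

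**Figure D3:**
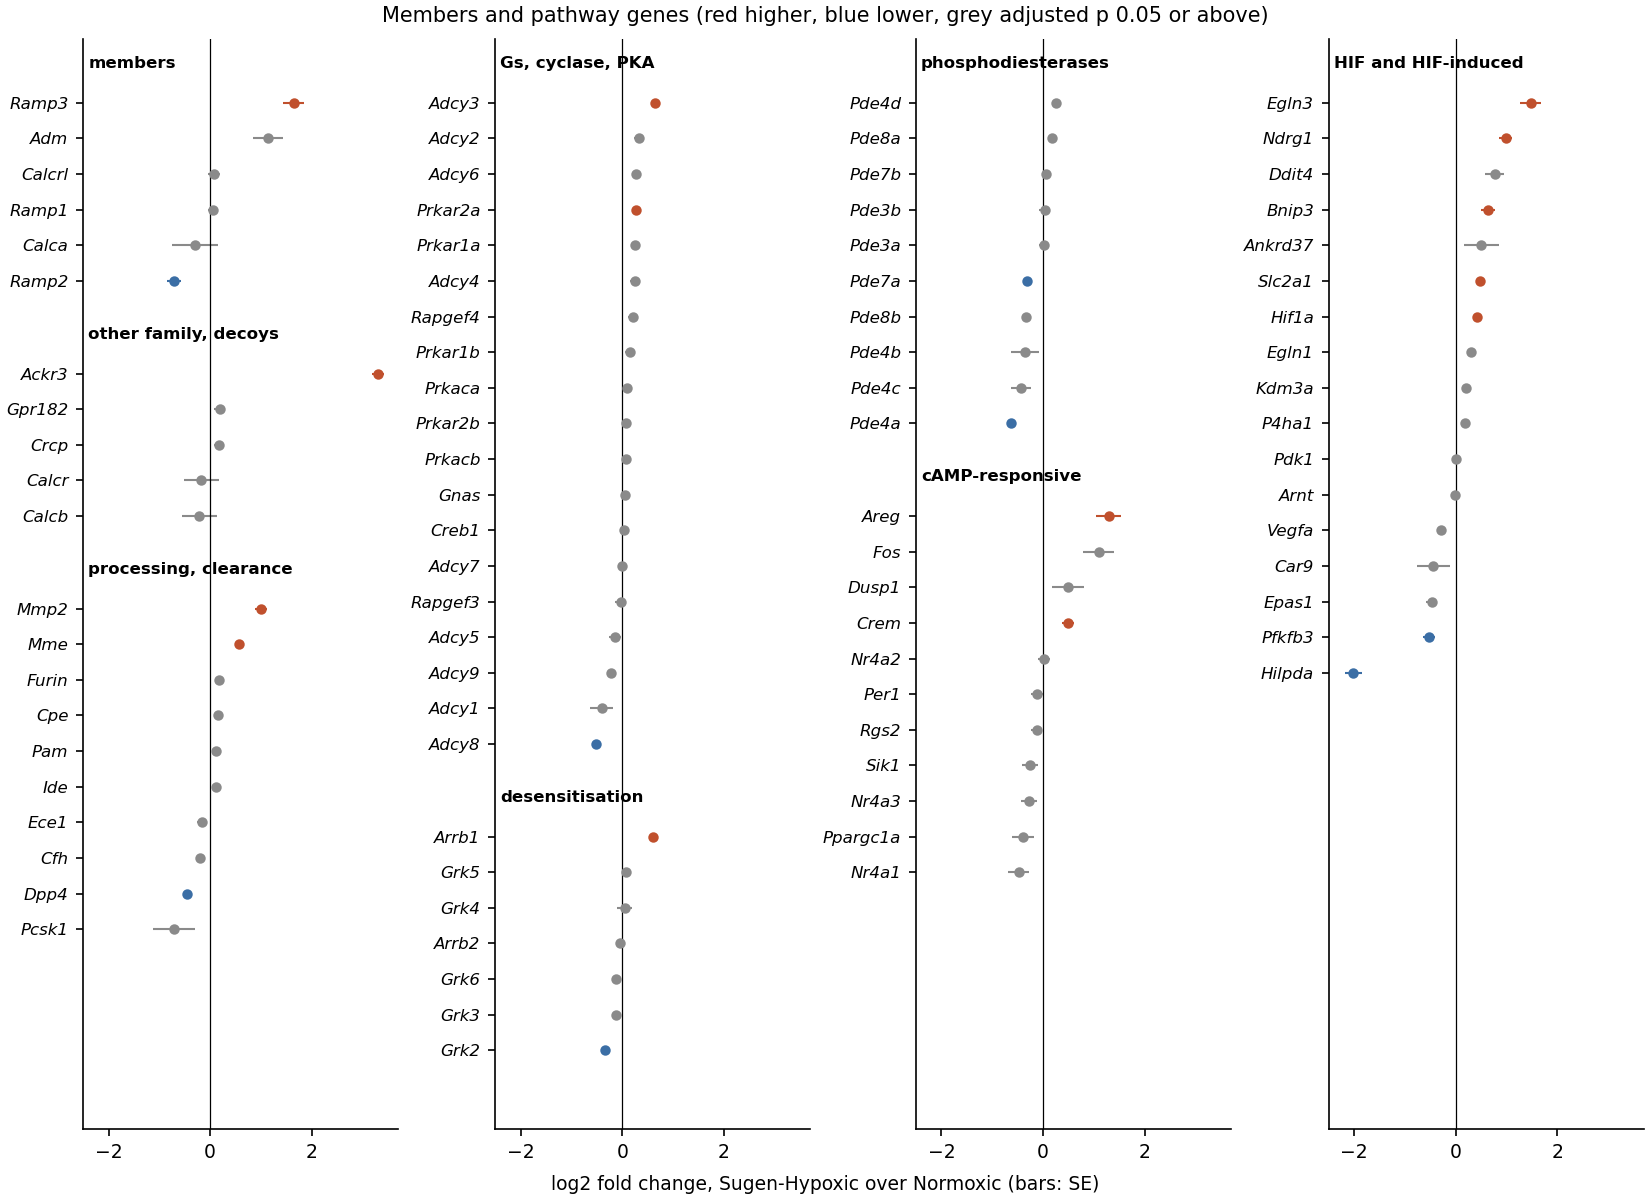
Log2 fold change, Sugen-Hypoxic over Normoxic, of the tested members and of the tested genes in 7 pathway lists, with their calls at an adjusted p of 0.05 in edgeR. Ackr3 lies at 3.29 ± 0.12 and Ramp3 at 1.64 ± 0.21 (SE), while most genes of the cyclic AMP pathway lie near 0.

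In whole-lung RNA, fewer cells of a type and less RNA per cell cannot be told apart, so markers of cells that carry these genes are set beside them. The calls of each marker list stand against the 11.5% of all genes tested that passed. Without a normoxic library, or with the share of males as a covariate, nearly all calls over all genes tested were lost. Without a treated library more genes passed than with all libraries. Calls gained or lost in those fits are therefore not particular to a list. Of 16 endothelial markers 5 rose and 1 fell, with a median of 0.28 and a summed level of 7439.5 and 7280.0 CPM in normoxia and 8550.4 and 7409.3 CPM after treatment, and none was at 0 in all libraries. Cdh5, the cadherin of endothelial junctions, rose by 0.59 ± 0.10 and Emcn, a mucin of capillaries and veins, by 1.04 ± 0.09 on the log2 scale, whereas Eng, a co-receptor for BMP ligands, fell by 0.73 ± 0.10. Set beside them, Ramp2 was at -0.72 ± 0.14 and Calcrl at 0.07 ± 0.11. Without Normoxic replicate 1 or Normoxic replicate 2 none of the 16 passed (0 higher and 0 lower). The endothelial median was 0.16 without Sugen-Hypoxic replicate 1 and 0.38 without Sugen-Hypoxic replicate 2.

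Of 7 aerocyte capillary markers 1 rose and 4 fell (median -0.65), led by Fibin at -1.94 ± 0.13 and the endothelin receptor gene Ednrb at -1.79 ± 0.12. Of 7 general capillary markers 2 rose and 3 fell (median -0.07), with the diaphragm protein gene Plvap at -1.30 ± 0.09 and the guidance factor gene Sema3c at 0.88 ± 0.13. Of 8 markers of larger vessels 0 rose and 3 fell (median -0.18), with the arterial ephrin gene Efnb2 at -1.11 ± 0.09. The aerocyte list summed to 1151.4 and 1155.8 CPM in normoxia and 885.7 and 748.1 CPM after treatment. The list of larger vessels summed to 1866.1 and 1761.6 CPM and then 1408.1 and 1327.6 CPM. General capillary markers summed to 2584.5 and 2572.8 CPM and then 2973.8 and 2564.4 CPM. The part of capillary make-up in the value of Ramp2 was not tested. Without Normoxic replicate 1 the aerocyte counts were 0 higher and 1 lower and those of the other lists 0, and without Normoxic replicate 2 they were 0 and 2 for aerocytes and 0 and 1 for each of the others. With the share of males as a covariate no gene of these lists passed. The general capillary median was -0.34 without Sugen-Hypoxic replicate 1 and 0.17 without Sugen-Hypoxic replicate 2.

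Of 6 lymphatic markers tested, 4 rose and 0 fell, with a median of 0.98 and a summed level of 548.2 and 515.9 CPM in normoxia and 717.3 and 683.6 CPM after treatment. Prox1, the transcription factor that defines lymphatic endothelium, went from 5.88 and 5.36 CPM to 15.6 and 16.5 CPM, and Mmrn1 and Reln rose by 1.47 ± 0.06 and 1.52 ± 0.09 on the log2 scale. Ccl21a had no read in any library, and Lyve1 (0.20 ± 0.12) and Pdpn (0.14 ± 0.09) overlapped between the groups and did not pass. The 4 calls became 2 without Normoxic replicate 1, 3 without Normoxic replicate 2 and 0 with the share of males as a covariate. The receptor gene Flt4 rose by 0.48 ± 0.11 on the log2 scale. With 2 treated libraries it cannot be told whether Ramp3 and these markers vary together. The part of lymphatic cells in the rise of Ramp3 was not tested.

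Of 8 smooth muscle markers 5 rose and 0 fell, of 7 pericyte markers 3 rose and 0 fell, and none of 8 fibroblast markers passed. The medians of these lists were 0.33, 0.20 and 0.14. The smooth muscle list summed to 993.0 and 1103.6 CPM in normoxia and 1314.4 and 1414.8 CPM after treatment. In fits without a Sugen-Hypoxic library the spread comes from the normoxic pair alone. Smooth muscle and pericyte calls were lost without either normoxic library and with the share of males as a covariate. Nearly all calls over all genes tested were lost in the same fits. The fibroblast median was 0.16 without Sugen-Hypoxic replicate 1 and 0.24 without Sugen-Hypoxic replicate 2.

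Immune markers fell for 9 of 10 T and NK cell genes, 6 of 6 B cell genes and 6 of 7 neutrophil genes, while 3 of 9 macrophage genes rose. Most of these calls were lost without either normoxic library, and all of them with the share of males as a covariate. Nearly all calls over all genes tested were lost in the same fits. The macrophage median of 0.73 became 1.05 without Sugen-Hypoxic replicate 1 and 0.32 without Sugen-Hypoxic replicate 2. Calcrl and Ramp1, which some immune cells also express, overlapped between the groups.

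**Figure D4:**
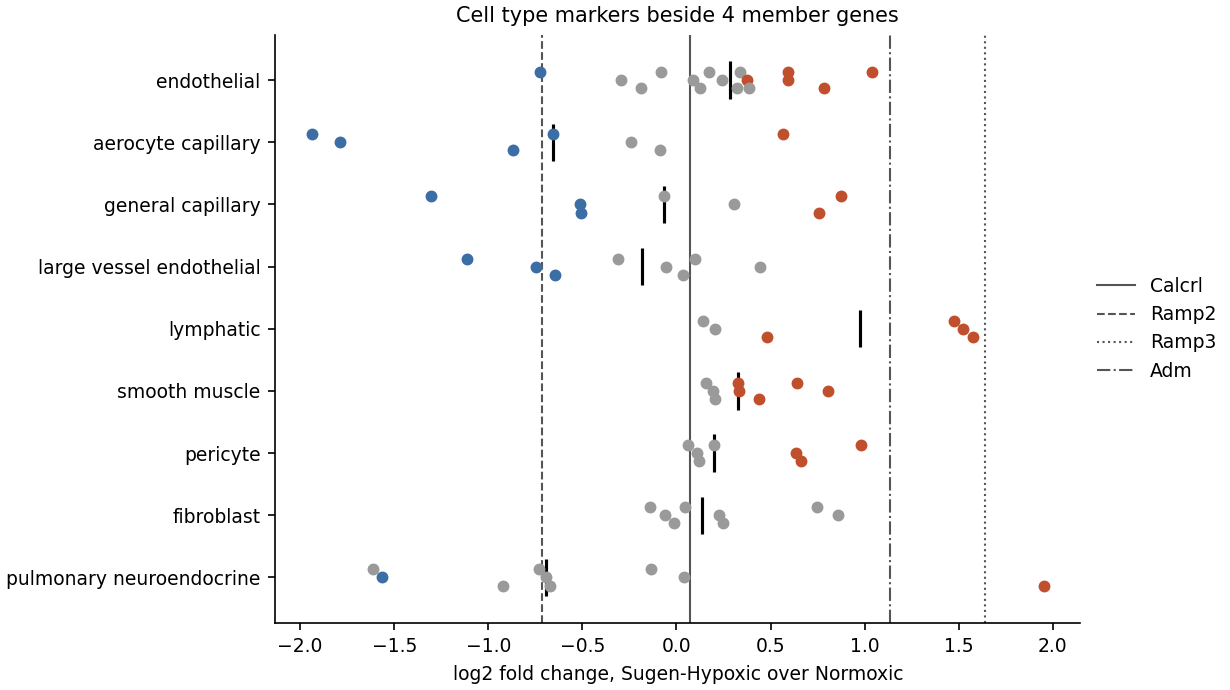
Log2 fold change, Sugen-Hypoxic over Normoxic, of tested marker genes by cell type, each point a gene with its call in edgeR, and the members set beside them. Vertical lines mark Ramp2 at -0.72, Calcrl at 0.07, Adm at 1.14 and Ramp3 at 1.64, the aerocyte points run from -1.94 to 0.56 and the lymphatic points from 0.14 to 1.58.

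The genes most like each member over the 4 libraries were found among 13376 protein-coding genes on autosomes that averaged 1 CPM or more, by the root mean square difference of centred log2 CPM. With 4 libraries in 2 groups any gene that moves by a similar amount comes near, so the names are a description. For Ramp3 they were Exoc3l2 (0.0455), Wfdc1 (0.0493) and Tcim (0.0532), with 7 genes within 0.1. For Ramp2 they were Ggt1 (0.0171), Fam213b (0.0217) and Styk1 (0.0287), with 86 genes within 0.1. For Adm, Nav3 was nearest (0.108), then Hrh1 and Ptger3, and no gene was within 0.1. Calcrl had 2874 genes within 0.1, led by St3gal2, Pde9a and Gstm2, and Ramp1 had 3531, led by Srf, Rbfa and Nox4.

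**Figure D5:**
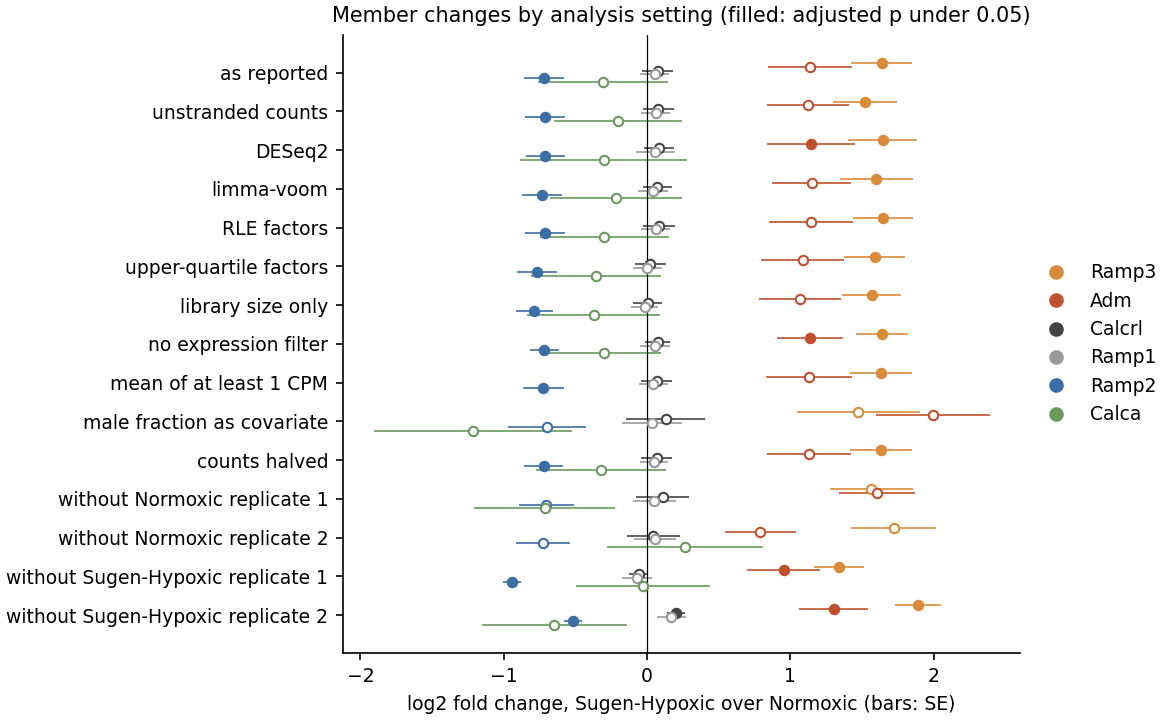
Log2 fold change of the tested members, Sugen-Hypoxic over Normoxic, under each analysis setting, with bars of 1 SE. With a library left out Ramp2 ranges from -0.94 to -0.52 and Ramp3 from 1.34 to 1.89, and both lose the call without either normoxic library and with the male fraction as a covariate.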

How the data were processed

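RNA of 4 pooled lung libraries was analysed. The files the authors deposited hold raw read counts per gene. Per the submitters' processing notes the tools were STAR 2.5.1b and HTSeq and the build GRCm38.p4. No source used here states the annotation or strandedness. The column with 20.9 to 24.9 times the reads of the opposite strand was used. Multimapping reads (4.50 to 4.54%), reads without a feature (7.73 to 9.98%), ambiguous reads (1.10 to 1.13%) and unmapped reads (6.45 to 7.55%) stayed out of library sizes and tests. Symbols, lengths and coordinates came from GENCODE mouse release 21, which matched 47310 of 47729 identifiers, and upstream sequences from RefSeq on GRCm38.p6.

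Counts were filtered with filterByExpr, scaled by TMM and put through the quasi-likelihood test of edgeR 4.0.16 in R 4.3.3 with group as the only term, two-sided, with Benjamini-Hochberg adjustment over 18783 genes at 0.05. Standard errors derive from the F statistic. On data simulated with 18783 genes (3 draws, 200 changed genes each) the test recovered 31.3% of 1.5-fold, 57.1% of 2-fold and 84% of 4-fold changes. Of its calls there 12.9% were false. In the data 2163 genes passed, far more than 200, and such rates depend on the share of genes changed. They need not hold for the data. Alternatives were DESeq2 1.42.0, limma-voom (limma 3.58.1), other scalings, filters and counts, the male fraction as a covariate and leaving out each library. Replicate numbers follow record order and pair nothing. Of 236 genes in 28 lists, 235 were found. The rule for names took the 7 members, pathway genes that passed, each list's extreme fold changes and highest level, and the 3 nearest genes of each member with a mean of at least 1 CPM. Kap, Slc22a6, Calcr, Iapp, Gpr182, Crcp, Pam, Gnas, Grp, Chga, Cdh5, Ednrb, Mmrn1, Reln, Flt4, Ccl21a, Lyve1, Pdpn and Tg were named, some outside that rule, after their values were seen. Members and lists were chosen with earlier results of these data known.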

Additional observations from a re-analysis of the deposited data

How the results depend on the processing

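Ramp2 and Ramp3 kept their direction in every alternative run and passed in all but 3 of them. With the male fraction as a covariate Ramp2 was -0.70 (adjusted p = 0.565) and Ramp3 1.48 (adjusted p = 0.472, edgeR), 0 members passed and 11 genes passed in all. With a library left out Ramp2 ran from -0.94 to -0.52 and Ramp3 from 1.34 to 1.89, and both lost the call without either normoxic library (adjusted p = 0.203 and 0.183 for Ramp2, 0.118 and 0.0997 for Ramp3, edgeR), where the lone library of a group is assumed to vary like the other group's pair. Adm passed with DESeq2 (1.145) and with no expression filter (1.138), and ran from 0.79 to 1.60 with a library left out, passing without either treated one. Calcrl ran from -0.059 to 0.20, Calca from -0.715 to 0.265 (-1.22 with the male fraction), Ramp1 from -0.067 to 0.17 and the log2 ratio of Ramp1 to Calcrl from -0.057 to 0.016, so their signs turned with single libraries, and Ramp1 was -0.017 with library size alone. The cause of these changes was not tested. Over all genes 2163 passed, against 3248 with DESeq2, 3657 with no expression filter and 25 to 5101 with a library left out, where 0 to 4 members passed. Dividing counts by 2, an alternative chosen after the even counts were seen, gave 2244 genes and 2 members. The differences in Ramp shares and in the other ratios kept their sign without each library. With the longest transcript as length the differences were -7.71 points for the Ramp2 share, 5.29 for Ramp3, 2.42 for Ramp1 and -27.1 for the summed Ramp level over Calcrl. No paired analysis was possible because the labels give no replicate numbers. Adm2, with 2 to 17 reads per library, is limited by depth.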
